A study of Mus musculus with 6 samples.

Results

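The genes described here encode amino acid and peptide transporters. They are 10 of the 54532 genes in each deposited table, and all 10 were among the 15847 genes tested. They were chosen by name: Slc7a15, Slc7a1, Slc7a5, Slc7a7, Slc7a8, Slc7a9, Slc3a1, Slc3a2, Slc6a19 and Slc15a1. Each name had a single row. The set was drawn up with earlier results of this comparison known, among them the difference of Slc7a15 between NECA and DMSO. The differences between the groups are therefore given as a description, and no call on these genes is independent evidence. RNA-seq libraries came from the intestine of newborn C57BL/6 mice, an inbred laboratory strain, given either NECA, an adenosine analogue that activates adenosine receptors, or the solvent DMSO, over 5 days. Each group had 3 libraries. The labels name no segment of bowel, no route or dose and no further treatment shared by the groups, and do not say that libraries came from separate animals, so the spread between libraries may be partly technical.

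Milk protein reaches the enterocyte, the absorptive cell of the villus, as free amino acids and short peptides. On the brush border, which faces the gut lumen, SLC15A1 (PEPT1) takes up di- and tripeptides together with protons. SLC6A19 (B0AT1) takes up neutral amino acids with sodium. SLC7A9 takes up cystine and cationic amino acids in exchange for neutral ones, and works only when joined to the glycoprotein SLC3A1 (rBAT). On the basolateral side, facing the blood, the glycoprotein SLC3A2 (4F2hc) carries light subunits such as SLC7A7, which releases cationic amino acids, and SLC7A8, which exchanges neutral ones. SLC7A5, another partner of SLC3A2, and SLC7A1, which works without a heavy subunit and imports arginine and lysine, are known mostly from dividing cells. Slc7a15 encodes a light subunit related to these that prefers aromatic amino acids and is active in the mouse and silenced in humans.

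Slc7a15 (ENSMUSG00000020600) lies on the minus strand of chromosome 12, from 8528483 to 8599066 (GRCm38, GENCODE M21), with 4 annotated transcripts and up to 7 exons. The RefSeq table on GRCm38.p6 gave the gene 2 transcript starts. The 250 bases before each are shown because this gene had the widest difference of the 10, and the starts lie far apart. Capitals mark the letters TATAA within 40 to 20 bases before the start, on the strand of the gene.
Slc7a15 start at 8599066, chr12:8599067-8599316, minus strand: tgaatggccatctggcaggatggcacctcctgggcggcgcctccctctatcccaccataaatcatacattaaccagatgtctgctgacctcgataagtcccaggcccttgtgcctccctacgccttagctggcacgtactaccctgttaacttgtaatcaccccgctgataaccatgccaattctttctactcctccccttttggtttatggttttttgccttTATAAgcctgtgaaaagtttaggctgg
Slc7a15 start at 8539566, chr12:8539567-8539816, minus strand: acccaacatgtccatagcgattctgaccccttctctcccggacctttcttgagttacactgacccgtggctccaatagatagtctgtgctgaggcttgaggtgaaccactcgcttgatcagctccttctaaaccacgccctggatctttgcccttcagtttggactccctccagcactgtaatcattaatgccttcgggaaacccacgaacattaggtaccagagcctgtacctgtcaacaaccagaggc
The upstream start carried TATAA, whose first base lay 27 bases before it, and the internal start did not. Of 32851 promoter windows in the table, 3.31% held these letters at that place on the strand of the gene, and 4.01% held them on either strand. This search was chosen after the sequences were seen. The second start of Slc7a1 was the other member window with the letters. Of the 10 members 9 had an entry in the table, all but Slc7a5.

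Slc7a15 was read at 21, 25 and 20 counts in the DMSO libraries, as against 112, 121 and 154 in the NECA libraries. As CPM, counts divided by a TMM-scaled library size, these were 1.17, 1.67 and 1.25 in DMSO and 7.24, 6.03 and 8.84 in NECA. The lowest NECA library lay well above the highest DMSO library, and the 3 libraries of each group lay close together. The mean was 1.37 ± 0.269 CPM with DMSO and 7.37 ± 1.41 CPM with NECA (SD over 3 libraries each). The fitted log2 fold change was 2.43 (SE 0.29), or 5.39-fold. On counts not scaled for library size, the exact Poisson 95% interval of the highest DMSO count ended at 36.9 counts. That of the lowest NECA count began at 92.2. As the gene was chosen with this contrast known, the gap between these intervals is a description and no test of the difference. Because PCR copies were not marked, the intervals cover counting error only. Relative to Epcam, an epithelial adhesion gene, Slc7a15 stood at 0.862, 1.204 and 0.750 per 1000 Epcam counts in DMSO and 4.95, 3.51 and 5.36 in NECA, again without overlap.

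Markers of bowel position and of other cells varied too, some of them with the groups. Of 8 ileal markers, 7 were higher and 1 lower in NECA, with a median log2 fold change of 1.71. By edgeR, 2 of the 8 had an unadjusted p under 0.05, against 5.48% of all genes. Without overlap were 0 of the 8, against 13.7% of all genes. The mean log2 CPM of the 8 was 3.11, 2.79 and 5.63 in DMSO and 3.67, 7.51 and 5.83 in NECA. Single markers differed in pattern. Osr2 was at 6.03, 7.63 and 30.4 CPM in DMSO and 31.1, 64.1 and 29.0 CPM in NECA. Fabp6, an ileal bile acid binding protein, was at 135 CPM in DMSO replicate 3 and at 0.0558 and 0.201 CPM in DMSO replicates 1 and 2. In NECA, Fabp6 was at 0 CPM in replicate 1, 1913 in replicate 2 and 149.6 in replicate 3. Without NECA replicate 2, the library that stood furthest from the others, the log2 fold change of Slc7a15 was 2.56. Other markers separated the groups as Slc7a15 did, in the opposite direction. Of 9 proximal bowel markers, all detected, 9 were lower in NECA, 3 without overlap (Ada, Pdx1 and Slc40a1), and DESeq2 called 2 of them. Over all genes, 7.16% were lower in NECA without overlap, and DESeq2 called 0.0694%. Ada, adenosine deaminase, was at 66.0, 58.6 and 43.5 CPM in DMSO and 17.3, 10.9 and 24.7 CPM in NECA, and Pdx1, a duodenal transcription factor, at 15.7, 10.9 and 2.31 CPM against 1.87, 0.199 and 0.632 CPM. The summed level of the 9 overlapped, at 5764 to 6304 CPM in DMSO and 510 to 6072 CPM in NECA. Outside NECA replicate 2 this sum was carried mostly by Lct and Fabp1, at 2427 and 2384 CPM in DMSO replicate 1. The mean log2 CPM of the 9, which weighs each marker alike, did not overlap. It was 7.69, 7.54 and 7.03 in DMSO and 6.99, 3.57 and 6.60 in NECA. The 7 colon markers, with Hoxd13 at 0 in all libraries, summed to 129.6 to 339 CPM in DMSO and 41.0 to 92.6 CPM in NECA. Of the 4 tested, 2 were lower in NECA without overlap, Aqp8 and Slc37a2, against 7.16% of all genes. The 6 white blood cell markers, all detected, summed to 57.2 to 71.9 CPM in DMSO and 34.8 to 45.6 CPM in NECA. Of the 6, 2 were lower in NECA without overlap, Ptprc, the pan-leukocyte gene, and Cd68, against 7.16% of all genes. The part of bowel position or cell makeup in the Slc7a15 difference was not tested. In intestine as a whole, fewer cells of a type and less RNA per cell cannot be told apart.

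A second transcript at the locus followed the same pattern. The gene 5033421B08Rik (ENSMUSG00000112276, chromosome 12, 8511201 to 8562681), annotated as antisense, runs opposite to Slc7a15 and shares 34199 bases of its span, with 0 shared exon bases. Its counts were 0, 1 and 3 with DMSO and 11, 13 and 19 with NECA, so its groups did not overlap either. Its choice followed its values, and at such counts its fold is poorly fixed. The strand setting of the counting is not given in the sources used here, so reads from unspliced RNA of the 2 genes cannot be told apart. Over the 6 libraries, the genes with a mean of at least 10 CPM and the highest Pearson correlation with Slc7a15 in log2 CPM were Rev1 (0.991), a translesion DNA polymerase, Arih2 (0.989), a ubiquitin ligase, Arvcf (0.971), a catenin, Jade1 (0.969) and Fbxo22 (0.956). They were picked as the highest among all such genes, and their own differences were small, with Rev1 the widest at 0.39 (SE 0.16).

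**Figure D1:**
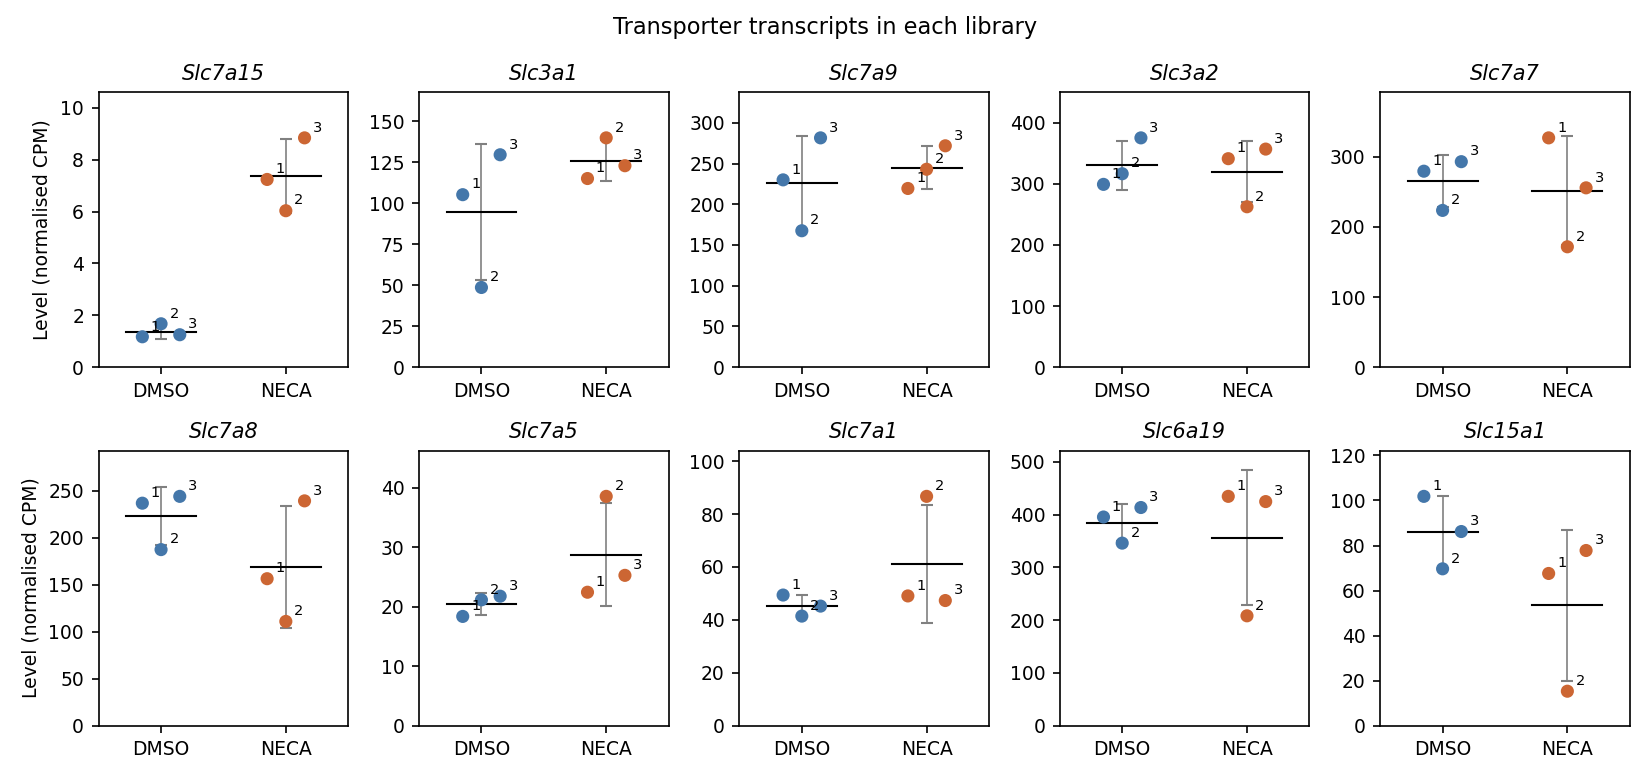
Level of each of the 10 transporter transcripts in normalised CPM (vertical axes, each from 0) in DMSO and NECA. Points are libraries with their replicate number, black lines the group means and grey bars 1 SD (n = 3). Slc7a15 separates the groups, at 1.17 to 1.67 CPM in DMSO and 6.03 to 8.84 CPM in NECA, and NECA replicate 2 is the lowest point for Slc15a1, at 15.3 CPM, and the highest for Slc7a1, at 86.7 CPM.

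Across all genes, edgeR's quasi-likelihood test with Benjamini-Hochberg adjustment called 0 of 15847 genes (0.0%) and so 0 of the 10 transporters. At an unadjusted p under 0.05 it held 868 genes (5.48%) and 1 transporter, Slc7a15. Slc7a15 was also the 1 transporter called by DESeq2, among 11 genes (0.0694%), by DESeq2 without NECA replicate 2, among 32 genes (0.198%), and by edgeR without the expression filter, among 2 genes (0.00739%). The groups did not overlap in 2164 genes (13.7%), with NECA higher in 6.49% and lower in 7.16% of all genes. This held for 2 transporters, Slc7a15 and Slc7a5, both higher in NECA. Since Slc7a15 was on the list because of this contrast, nothing is read from these shares. Of the 10 transporters 5 were higher and 5 lower in NECA, with a median log2 fold change of 0.03, against -0.01 over all genes tested.

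The levels of the 10 genes spanned a wide range. The authors' FPKM is scaled by a fixed length per gene and so compares genes. For most of the 10 this length was in proportion to all annotated exon bases, 11530 for Slc7a1 and 2990 for Slc7a15. It can therefore exceed the length of any 1 transcript. By FPKM, the DMSO order was led by Slc3a2 at 92.4 ± 11.4, Slc7a9 at 83.6 ± 21.5, Slc7a7 at 79.1 ± 11.5 and Slc6a19 at 76.0 ± 7.37 FPKM (SD, n = 3). The library ranges of neighbours in this leading group overlapped, so their order is not fixed. Slc7a8 at 44.0 ± 6.35 and Slc3a1 at 40.5 ± 18.0 FPKM came next and overlapped each other. Slc15a1 at 17.4 ± 3.34, Slc7a5 at 5.44 ± 0.474, Slc7a1 at 3.88 ± 0.362 and Slc7a15 at 0.450 ± 0.0857 FPKM each lay below all DMSO libraries of the gene before, only narrowly in the case of Slc15a1 under Slc3a1. Slc3a2 exceeded 97.8% of the genes with at least 1 count, and Slc7a15 exceeded 44.7%. In NECA, Slc7a15 was still the lowest of the 10, at 2.46 ± 0.476 FPKM. Slc7a9 exceeded it 186-fold in DMSO and 37.1-fold in NECA, as ratios of mean FPKM.

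**Figure D2:**
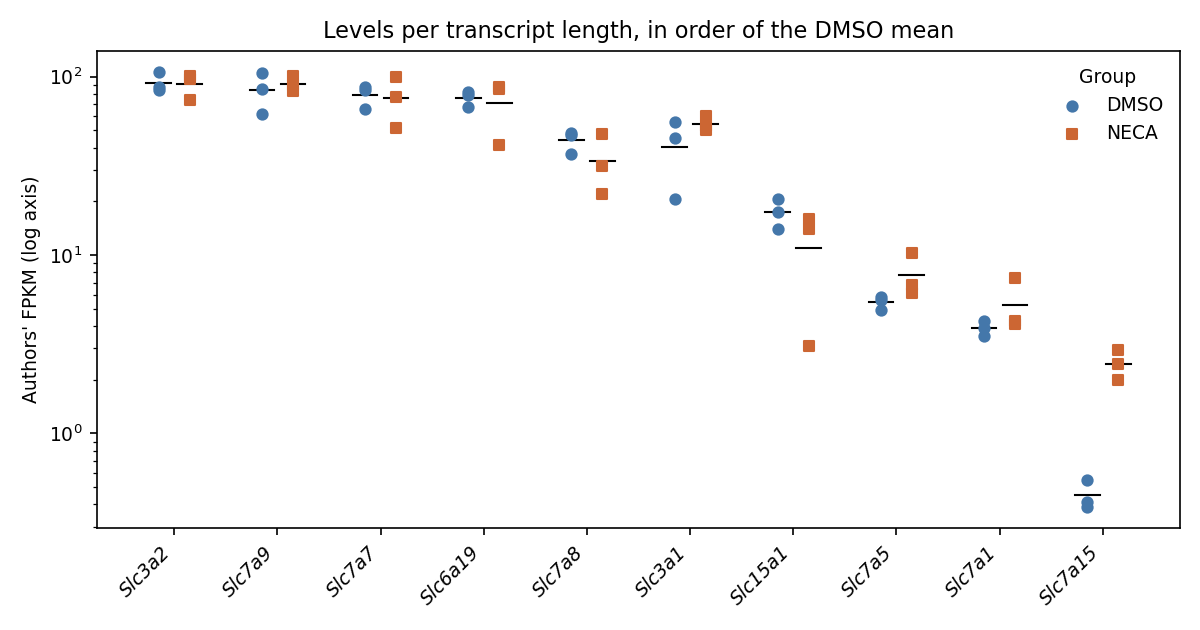
Authors' FPKM of the 10 transporters (vertical log axis) in each library, ordered by the DMSO mean, with circles for DMSO, squares for NECA and black lines for group means. Slc3a2 leads at 92.4 FPKM in DMSO, and Slc7a15 is last in both groups, at 0.450 and 2.46 FPKM.

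Slc3a1 and Slc7a9, the 2 subunits of the brush-border cystine transporter, had their lowest levels in the same library. Slc3a1 (ENSMUSG00000024131, chromosome 17, 85028376 to 85064236) was at 105, 48.6 and 129.7 CPM in DMSO and 115, 140.0 and 123 CPM in NECA. Slc7a9 (ENSMUSG00000030492, chromosome 7, 35448796 to 35466036) was at 230.0, 167 and 282 CPM in DMSO and 219, 243 and 272 CPM in NECA. DMSO replicate 2 was thus the low library for both, and the groups overlapped in each gene. The log2 fold changes were 0.41 (SE 0.32) for Slc3a1 and 0.11 (SE 0.22) for Slc7a9. Without DMSO replicate 2 they were 0.10 and -0.06. That library also had the lowest Vil1, a brush-border gene, at 655 CPM against 985 to 1512 CPM elsewhere. Its 6 smooth muscle markers, all detected, summed to 5713 CPM against 2264 to 2983 CPM. The part of these in the low transporter values was not tested.

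The light subunit exceeded the heavy one at this transporter. By FPKM, Slc7a9 stood at 1.88, 2.97 and 1.87 times Slc3a1 in the DMSO libraries and at 1.64, 1.496 and 1.91 times in the NECA libraries. Slc7a13, which encodes another light partner of SLC3A1 known from the kidney, had 0 counts in all 6 libraries, which allows a level of up to 0.150 to 0.201 CPM (3 counts per library). The kidney-type gene Slc7a12 also had 0 counts in each. Slc3a1 shares 601 exon bases with Prepl on the opposite strand, a gene at 41.6, 29.1 and 41.9 CPM in DMSO and 40.8, 48.0 and 39.0 CPM in NECA. Prepl was also lowest in DMSO replicate 2 and highest in NECA replicate 2, and with no strand setting known, reads from the shared exon bases cannot be told apart.

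The basolateral transporters overlapped between the groups. Slc3a2, the heavy subunit (ENSMUSG00000010095, chromosome 19, 8706882 to 8723369) was at 299, 316 and 375 CPM in DMSO and 341, 262 and 357 CPM in NECA, with overlapping groups and a log2 fold change of -0.04 (SE 0.19). Its light subunits were less alike. Slc7a7 (ENSMUSG00000000958, chromosome 14, 54369442 to 54417780), the gene mutated in lysinuric protein intolerance, was at 279.6, 224 and 293 CPM in DMSO. In NECA it was at 327, 172 and 256 CPM, so that the NECA libraries held its highest and lowest values (log2 fold change -0.08, SE 0.26). Slc7a7 shares 232 exon bases with Oxa1l on the opposite strand. Oxa1l was at 79.7, 74.2 and 72.5 CPM in DMSO and 69.3, 69.0 and 67.8 CPM in NECA. With no strand setting known, reads from these shared bases cannot be told apart. Slc7a8 (ENSMUSG00000022180, chromosome 14, 54722209 to 54781946) was at 237, 187 and 244 CPM in DMSO and 157, 111 and 239 CPM in NECA. NECA replicates 1 and 2 lay below all DMSO libraries and replicate 3 among them, with a log2 fold change of -0.40 (SE 0.28). Slc7a7 exceeded Slc7a8 by FPKM in every library, 1.61 to 1.81 times in the DMSO libraries and NECA replicate 3, and 3.16 and 2.34 times in NECA replicates 1 and 2.

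Among the 9 members with a promoter entry, Slc7a7 was the one whose start region held the amino acid response element. Slc7a5 had no entry and was not searched. The element is the sequence bound by ATF4, the transcription factor that switches on transporter and synthesis genes when amino acids run short. The search used TGATGCAA and its reverse complement TTGCATCA, and TGACGTCA, the cAMP response element, which reads alike on both strands, with no overlap between the motifs. The windows ran from 250 bases before to 50 bases after each RefSeq start. Capitals mark the match, which is shown with the 250 bases before the second of 5 starts.
Slc7a7 start at 54417702, chr14:54417703-54417952, minus strand: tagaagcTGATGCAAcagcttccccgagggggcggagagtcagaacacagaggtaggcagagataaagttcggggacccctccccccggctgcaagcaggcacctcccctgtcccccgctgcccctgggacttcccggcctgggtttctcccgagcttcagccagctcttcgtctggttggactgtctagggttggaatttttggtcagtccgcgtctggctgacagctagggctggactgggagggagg
The match lies at chr14:54417938-54417945 and falls into the windows of 2 Slc7a7 starts. Of all windows, 0.895% held this element and 1.79% held the cAMP response element, which was found in 0 of the 16 member windows. A match is a description of these letters and no evidence of binding, and its absence says nothing of the factor.

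Slc7a5 and Slc7a1, the transporters known from dividing cells, were highest in NECA replicate 2. Slc7a5 (ENSMUSG00000040010, chromosome 8, 121881150 to 121907694), which imports large neutral amino acids such as leucine, was at 18.4, 21.1 and 21.8 CPM in DMSO and 22.4, 38.5 and 25.3 CPM in NECA. The groups did not overlap, although the lowest NECA library lay close to the highest DMSO library. Its log2 fold change was 0.49 (SE 0.23) with all libraries and 0.23 (SE 0.16) without NECA replicate 2. Slc7a1 (ENSMUSG00000041313, chromosome 5, 148327410 to 148399904) was at 49.4, 41.4 and 45.2 CPM in DMSO and 49.0, 86.7 and 47.3 CPM in NECA. Only NECA replicate 2 lay above the DMSO range, and the log2 fold change of 0.43 (SE 0.25) was 0.09 (SE 0.14) without it. The 6 proliferation markers, all detected, summed to 610 to 788 CPM in the other 5 libraries and 1382 CPM in NECA replicate 2. Of these Mcm2, a replication gene, was higher in NECA without overlap, at 78.4, 102 and 93.7 CPM in DMSO and 149, 150.2 and 105.9 CPM in NECA. It was the 1 such gene of the 6, against 6.49% of all genes. The part of the proliferation markers in the transporter values was not tested.

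Slc15a1 and Slc6a19, unlike Slc3a1 and Slc7a9, were lowest in that same library. Slc15a1 (ENSMUSG00000025557, chromosome 14, 121459621 to 121505252) was at 102, 69.7 and 86.2 CPM in DMSO and 67.6, 15.3 and 77.8 CPM in NECA. NECA replicate 1 lay just below the DMSO range, replicate 3 within it and replicate 2 far below both. The log2 fold change was -0.68 (SE 0.51), or -0.24 (SE 0.18) without NECA replicate 2. Slc6a19 (ENSMUSG00000021565, chromosome 13, 73679745 to 73704865), the gene mutated in Hartnup disorder, was at 396, 346 and 414 CPM in DMSO and 435, 208 and 425 CPM in NECA. Its other NECA libraries stood above all of DMSO, and the log2 fold change went from -0.11 (SE 0.29) to 0.16 (SE 0.14) without NECA replicate 2.

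Genes of the kidney form of this uptake were near the detection limit. Cltrn, which encodes collectrin, the partner of SLC6A19 in the kidney, was at 0.134 to 0.775 CPM and below the expression filter, as was the kidney transporter Slc6a18 at 0 to 0.375 CPM. Anpep, an aminopeptidase of the brush border that frees amino acids from peptides, did not share the low level of Slc6a19 in NECA replicate 2. It was at 1207, 858 and 1548 CPM in DMSO and 1516, 1685 and 1531 CPM in NECA. The 10 enterocyte markers, all detected, summed to 12251 CPM in NECA replicate 2 and 44902 to 53823 CPM in the other libraries, a sum carried mostly by the apolipoproteins Apoa1 and Apoa4. In NECA replicate 2, 6 of the 10 were at their lowest level (Alpi, Apoa1, Apoa4, Fabp1, Fabp2 and Lct) and the other 4 at their highest (Vil1, Epcam, Cdh1 and Anpep). Lct, the lactase of the suckling villus, stood at 98.2 CPM in that library and at least 1986 CPM elsewhere, and the 8 ileal markers, all detected, summed to 3440 CPM against 767 to 1159 CPM. The part of cell type or bowel position in these transporter values was not tested.

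**Figure D3:**
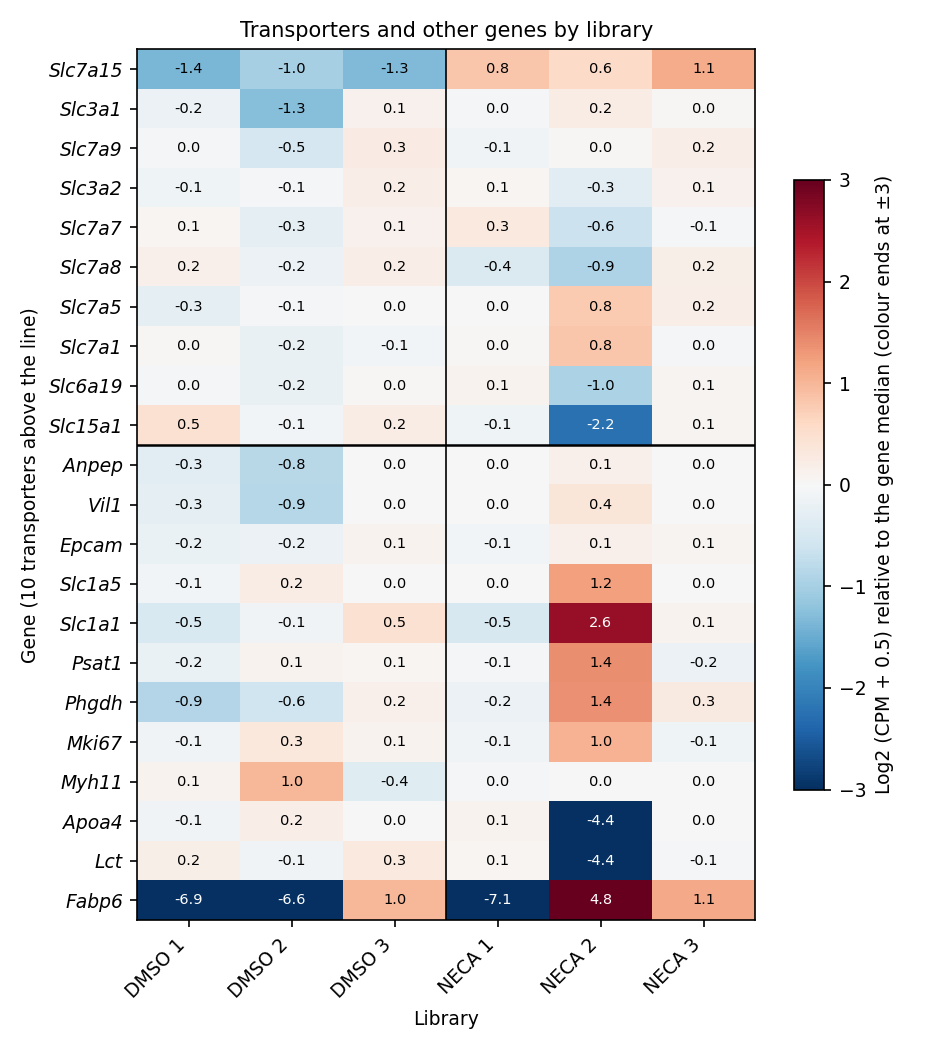
Level of the 10 transporters (above the line) and 12 other genes in each library, as log2 of CPM + 0.5 relative to the median of the gene over the 6 libraries, with red above and blue below that median. The column of NECA replicate 2 is low for Slc15a1, Slc6a19, Slc7a8, Apoa4 and Lct and high for Slc7a1, Slc7a5, Slc1a5, Psat1 and Fabp6, whereas Slc7a15 is high in all 3 NECA columns.

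**Figure D4:**
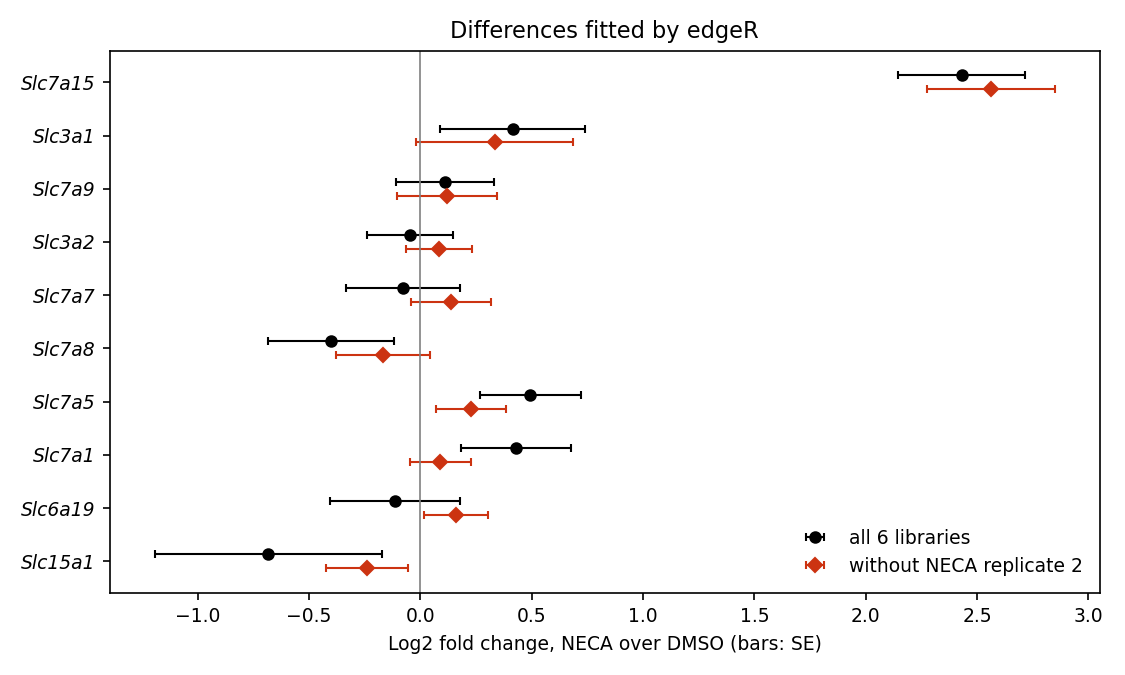
Log2 fold change of each transporter, NECA over DMSO, from edgeR (horizontal axis, bars 1 SE), with all 6 libraries (circles) and without NECA replicate 2 (diamonds). Slc7a15 is at 2.43 and 2.56, and the other 9 lie between -0.68 and 0.49 with all libraries and nearer to 0 without that library in 5 of them.

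Among 38 other amino acid and peptide transporter genes, 30 were tested. The list, like those below, was drawn up with earlier results of these data known. Of these, 18 were higher and 12 lower in NECA, with a median log2 fold change of 0.12. edgeR and DESeq2 each called 0 in either direction. An unadjusted p under 0.05 was reached by 3 of the 30 (5.48% of all genes) and 3 of the 30 did not overlap (13.7% of all genes), so the latter share was not above that of all genes. The largest of those with groups that did not overlap was Slc38a3, a sodium-coupled glutamine and histidine transporter. It was at 2.46, 1.67 and 11.3 CPM in DMSO and 27.7, 22.0 and 23.0 CPM in NECA, with a log2 fold change of 2.24 (SE 0.64), or 4.72-fold. DMSO replicate 3 stood above the other DMSO libraries, below all of NECA, and the fold was 11.6 without it. It was 3.54 without DMSO replicate 2 and between 3.70 and 4.95 with any other library left out. Slc6a6, the taurine transporter, was at 204, 155 and 247 CPM in DMSO and 327, 294 and 305 CPM in NECA (0.61, SE 0.20). The third such gene, Slc15a2, the kidney-type peptide transporter, was lower in NECA at 3.68, 4.08 and 3.19 CPM against 1.81, 2.84 and 2.07 CPM. It lay under the level of 10 CPM set for naming, so its choice followed its values.

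Genes of the amino acid shortage response showed no call. Of 27 tested genes on this list, 15 were higher and 12 lower in NECA (median 0.10). edgeR and DESeq2 each called 0. An unadjusted p under 0.05 was reached by 3 of the 27, against 5.48% of all genes, and 3 of the 27 did not overlap, against 13.7% of all genes. Atf4 itself was at 131, 202 and 149 CPM in DMSO and 119, 157 and 135 CPM in NECA, with overlapping groups (-0.23, SE 0.21). Stc2 (0.80, SE 0.35) and Eif4ebp1 (0.41, SE 0.17), an inhibitor of translation that mTORC1 restrains, were the 2 genes of at least 10 CPM whose groups did not overlap. The third, Chac1, averaged 0.813 CPM in DMSO and 1.82 CPM in NECA, and its choice followed its values. In the serine synthesis genes Psat1 and Phgdh the highest library was NECA replicate 2, at 53.8 and 156 CPM against 17.5 to 21.6 and 32.5 to 72.0 CPM elsewhere. Of 16 genes of mTORC1 nutrient sensing, the pathway by which cells read their amino acid supply, 10 were higher and 6 lower (median 0.07). Both edgeR and DESeq2 called 0, and 0 had an unadjusted p under 0.05, against 5.48% of all genes. Of the 16, 4 did not overlap, against 13.7% of all genes, and nothing is read from this count. Mtor was at 53.1, 36.8 and 50.01 CPM in DMSO and 58.4, 62.1 and 59.7 CPM in NECA, a log2 fold change of 0.36 (SE 0.16). The scaffold genes Rptor (0.26, SE 0.13) and Lamtor1 (0.27, SE 0.14) were the others of at least 10 CPM without overlap. Castor1, an arginine sensor below that level, was lower in NECA without overlap, and its choice followed its values.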

How the data were processed

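Gene expression was measured by RNA-seq in 6 intestine libraries, 3 per group, grouped by their titles. Libraries were prepared from SMARTer cDNA with PCR amplification, per the labels' protocols. The submitters' processing notes name HISAT, StringTie and edgeR and the builds mm10 and GRCm38; the strand setting is not given in the sources used here. The authors deposited raw counts per gene and FPKM values, per the file headers. In 11748 genes with over 50 counts in each library, FPKM equalled the count over the product of a gene constant and a library constant (largest relative deviation 2.67e-09). Library totals ran from 15531996 to 18065078 counts.

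Genes were filtered with filterByExpr (minimum count 10, minimum total 15), normalised by TMM and compared by the quasi-likelihood test of edgeR 4.0.16 in R 4.3.3, NECA against DMSO, without covariates, over all 15847 genes (Benjamini-Hochberg threshold 0.05, two-sided). The common biological coefficient of variation was 0.276. The SE is the absolute log2 fold change over the square root of F. The code was tested on simulated data. Alternatives were DESeq2 1.42.0, its size factors, other filters, robust dispersions, a replicate block, each library left out and FPKM scales. Members and lists were chosen with earlier results of these data known. All 10 members are named. From the lists of other transporters, amino acid response and mTORC1 genes, up to 5 genes with groups that did not overlap and at least 10 CPM in the higher group are named, beside Cltrn and Atf4, and the 5 genes most like Slc7a15. Marker lists are given as sums and counts with examples chosen after their values were seen. A further gene fixed by name is not reported here. Coordinates are from GENCODE M21 on GRCm38, which held 99.8% of the identifiers.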

Additional observations from a re-analysis of the deposited data

How the results depend on the processing

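As described, edgeR called 0 genes and 0 transporters. The same held with DESeq2 size factors, a filter of 5 CPM, robust dispersions, each library left out in turn (0 to 0 genes) and both replicates numbered 2 left out. Without the expression filter edgeR called 2 genes and 1 transporter, DESeq2 called 11 genes and 1 transporter, and DESeq2 without NECA replicate 2 called 32 genes and 1 transporter. The transporter was Slc7a15 each time. The cause was not tested. The other transporter, amino acid response and mTORC1 lists had 0 calls under each alternative. With a replicate block edgeR called 0 genes and 628 had an unadjusted p under 0.05, against 868 without it. Deviations from the group means of same-numbered libraries correlated at 0.00871, -0.186 and -0.0202 across genes. DMSO replicate 2 correlated best with NECA replicate 1, at 0.248. In each group of 3 libraries the deviations of a gene sum to 0. These correlations therefore cannot show whether the numbers pair the libraries.

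Slc7a15 differed by 2.28 to 2.60 on the log2 scale with each library left out, 1.94 relative to Vil1 counts, and 1.25 as a difference of log2(FPKM + 1), a scale that shrinks low genes. Its sign held in all 19 alternatives, as it did for Slc3a1, Slc7a8 and Slc15a1. The signs of Slc7a7 and Slc3a2 turned in 4 alternatives each, those of Slc7a9 and Slc6a19 in 3 each, and those of Slc7a1 and Slc7a5 in 1 each. The last was the scaling to Vil1, under which Slc7a1 stood at -0.12 and Slc7a5 at -0.04. In the order of levels, 5 of 10 members kept their place with CPM in place of FPKM. With a DMSO library left out, 6 to 10 of 10 kept it. The scaling to Epcam and Vil1, DESeq2 without NECA replicate 2 and the fit without both replicates numbered 2 were chosen after seeing the data.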

Other observations

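Slc6a14, a broad amino acid importer of the distal bowel, varied between libraries of the same group, and its choice followed its values. It was at 83.8, 0.134 and 4.94 CPM in DMSO and at 0, 80.8 and 3.16 CPM in NECA, so that 1 library of each group was high. DMSO replicate 1, the high DMSO library, was also the library with the most Car1, a colonic carbonic anhydrase, at 7.64 CPM against at most 0.0997 CPM in the others. NECA replicate 2, the high NECA library, had 22.8 CPM of the ileal bile acid transporter Slc10a2, against at most 2.18 CPM in the others.

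Slc1a1 and Slc1a5, which carry glutamate and glutamine, were likewise highest in NECA replicate 2 and were named after their values were seen. Slc1a1 was at 26.2 CPM there and at 2.65 to 5.50 CPM in the other 5 libraries, and Slc1a5 at 106 CPM against 42.8 to 52.5 CPM. Slc6a19os, annotated opposite to Slc6a19 with 0 shared exon bases, was at 4.59 CPM in NECA replicate 2 and 12.9 to 18.5 CPM elsewhere, low in the same library as Slc6a19.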
